A study of Mus musculus with 4 samples.

Results

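Expression of 10 genes linked to DNA methylation and related chromatin marks was followed in sorted mouse blood stem cells with and without Nol3. The set held Dnmt1, Dnmt3a and Dnmt3b, Tet1, Tet2 and Tet3, Asxl1, Ezh2, Idh1 and Idh2. The genes were taken as a named list of regulators known from human myeloid neoplasm, and each was read from the row of the array table that carried only its symbol, the brightest where there were several. All 10 were found among 22180 genes with such a row. Whole-transcript arrays had been run on Thy1+ LSK bone marrow cells, sorted as lineage-negative, Sca-1-positive, Kit-positive and Thy1-positive and rich in blood stem cells, from uncultured and untreated C57BL/6 mice aged 11 to 18 months. The 2 Nol3+/+ arrays came from mice with intact Nol3 and have no disease mark in the sample labels, although the series title could be read to give it to both genotypes. The 2 Nol3-/- MPN arrays came from mice without Nol3 that the sample labels mark MPN, taken here as myeloproliferative neoplasm. The labels do not give the sex of the mice or the number of animals behind an array, so p-values measure the spread between these arrays, which may be technical.

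Cytosine methylation at CpG sites is copied to the new DNA strand at replication by Dnmt1 and set up at unmethylated sites by Dnmt3a and Dnmt3b. The Tet enzymes oxidise methylcytosine and so begin its removal, using 2-oxoglutarate as a co-substrate. Idh1 in the cytosol and peroxisome and Idh2 in the mitochondrion make 2-oxoglutarate from isocitrate, and cancer mutants of either enzyme make 2-hydroxyglutarate, which inhibits the Tet enzymes. Ezh2 is the main catalytic subunit of polycomb repressive complex 2 (PRC2), which places a repressive methyl mark on histone H3, and Asxl1 is a partner of the deubiquitinase Bap1, which removes ubiquitin from histone H2A. Mutations of several of these genes, TET2, DNMT3A and ASXL1 foremost, are recurrent in human myeloid neoplasm and in clonal haematopoiesis of ageing. The arrays measured transcript signal, not mutation, DNA methylation or enzyme activity.

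Values are log2 signals, so that a difference of 1 is a 2-fold difference, and medians of the 4 arrays lay between 5.35 and 5.39. Nol3 itself had signals of 5.31 and 5.52 on the Nol3+/+ arrays against 5.38 and 5.50 on the Nol3-/- MPN arrays, and whether its probes fall inside the deleted part is not known here, so this row is no check of the genotype. Of the sort genes, Kit read between 7.39 and 8.38 on the 4 arrays and Thy1 between 4.64 and 5.24, close to 4.835, the 25th percentile of the gene rows, below which genes were treated as dim. Ly6a, which encodes Sca-1, was not analysed here. Xist, the RNA of the inactive X chromosome, averaged 10.78 on the Nol3-/- MPN arrays against 5.36 on the others (limma adjusted p = 0.023). The Y-linked genes Eif2s3y, Uty and Kdm5d lay on the opposite side, by -2.74, -1.50 and -1.19, without passing the adjusted threshold. Genotype, the disease label and this sex-linked signal therefore cannot be told apart. Mature granulocyte and monocyte markers, which the gate should exclude, had 5 of 8 tested genes lower and 1 higher in Nol3-/- MPN without overlap between the groups, against 15.9% and 19.7% of all genes tested. Their summed signal, in log2 units, was 10.07 and 10.53 in Nol3+/+ against 9.81 and 9.70 in Nol3-/- MPN, with S100a8 at 7.03 and 7.88 against 6.60 and 6.58. Adgre1, the 1 tested gene higher without overlap, read 5.49 and 5.56 against 5.90 and 5.88. Ly6g, too dim to be tested, also read higher, at 4.43 and 4.24 against 4.96 and 5.38. Other marker lists divided the groups too. Without overlap, B cell markers had 4 of 5 tested genes higher and 0 lower, and T and NK cell markers 3 of 8 higher and 2 lower. Megakaryocyte markers had 1 of 5 higher and 1 lower, and mast cell and basophil markers 0 of 4 higher and 1 lower. Erythroid and bone marrow stromal markers each had 0 of 6 higher and 2 lower. The part of these cells in the results on the 10 genes was not tested. In sorted bulk cells, fewer cells of a type and less RNA per cell cannot be told apart.

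None of the 10 genes passed the test for a difference between the genotypes. All 10 lay above the limit for dim genes and were tested, and 0 passed limma's adjusted threshold of 0.05, with adjusted p-values from 0.846 upwards, while 4 of all 16635 genes (0.024%) did. At an unadjusted p under 0.05, 0 of the 10 were higher and 0 lower, against 3.73% and 2.07% of all genes. In 2 genes, Dnmt1 and Dnmt3a, both Nol3-/- MPN arrays lay above both Nol3+/+ arrays, and in 0 they lay below. Over all genes these shares were 19.7% and 15.9%, so the count of 2 in 10 lies near the background. The log2 differences ran from -0.09 to 0.80 with a median of 0.11, against a median of 0.01 over all genes tested. The 95% interval included 0 for every member, and for 9 of the 10 it lay wholly within 1 log2 unit of 0, as it did for 83.1% of all genes. For those 9 genes a 2-fold difference of array signal in either direction is outside the interval, and the exception was Idh2. These intervals are of deposited signals, and weak signals are not separable from background here. A 2-fold difference in transcript is therefore not excluded.

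**Figure D1:**
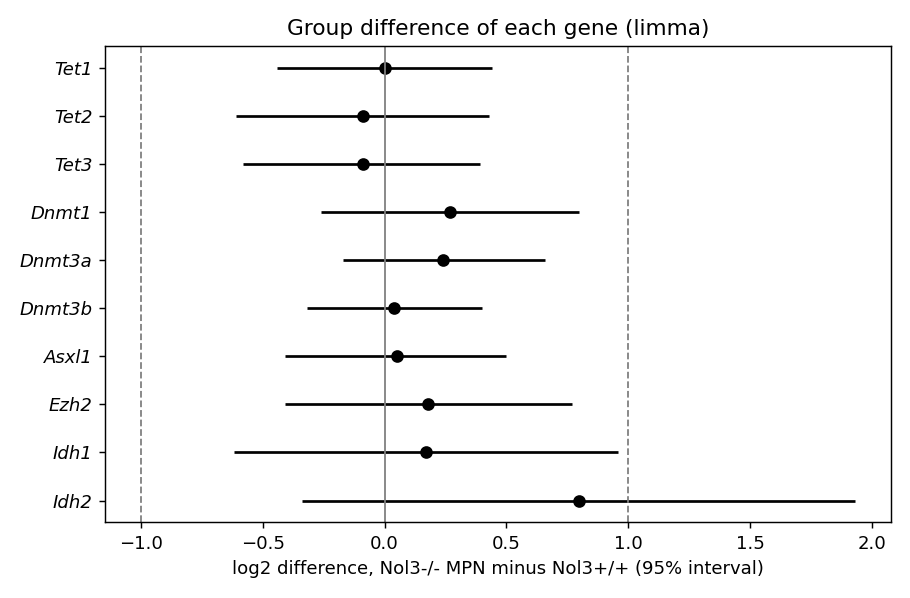
Group difference of each of the 10 genes in log2 units, Nol3-/- MPN minus Nol3+/+ (2 arrays each), with limma's estimate as a point and its 95% interval as a line; dashed lines mark a 2-fold difference. Every interval crosses 0, and only that of Idh2, from -0.34 to 1.93, reaches past a 2-fold difference.

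Of the 3 DNA methyltransferase genes, Dnmt1 and Dnmt3a read slightly higher on the Nol3-/- MPN arrays. Dnmt1, the maintenance enzyme, read 8.65 and 8.50 in Nol3+/+ but 8.83 and 8.85 in Nol3-/- MPN. The groups did not overlap, and the log2 difference of 0.27 (SE 0.21) lay within an interval of -0.26 to 0.80 (limma adjusted p = 0.878), or 1.21-fold (0.834 to 1.74). Dnmt3a, the de novo enzyme most often mutated in human clonal haematopoiesis, read 6.11 and 6.17 in Nol3+/+ against 6.40 and 6.36 in Nol3-/- MPN. Its replicates lay within 0.06 and 0.05 of each other, and only 15.7% and 14.1% of tested genes had a smaller gap in these groups. Its difference was 0.24 (SE 0.16, interval -0.17 to 0.66, limma adjusted p = 0.864). These were the only 2 of the 10 members whose group difference exceeded the gap between replicates in both groups. Over all 16635 genes tested, 3827 did so, so this count also lies near the background. An ordinary per-gene test, which takes the small spread of Dnmt3a at face value, gave an unadjusted p of 0.022 for it but an adjusted p of 0.897. Dnmt3b, the other de novo enzyme, read 5.86 and 5.77 against 5.83 and 5.89, a difference of 0.04 (SE 0.14) with overlapping groups. Dnmt3l, the catalytically inactive cofactor of the de novo enzymes, differed by 0.04 as well. Uhrf1, which brings Dnmt1 to hemimethylated DNA at replication forks, read 5.84 and 5.13 against 5.10 and 5.25, a difference of -0.31 (SE 0.26, limma adjusted p = 0.883) with overlapping groups.

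The promoter windows of Dnmt1 and Dnmt3a are shown because these were the members without overlap between the groups, and because their start sites differ widely in CpG sites, the substrate of these enzymes. RefSeq sequences of build GRCm38.p6, from 250 bases before to 50 after a start, were at hand for all 10 genes in 15 windows of 300 bases. CpG sites are in capitals. The most upstream Dnmt1 start, at chr9:20959839-20960138 on the minus strand, has 2 CpG sites, and another Dnmt1 start, at chr9:20952574-20952873 on the minus strand, has 33. A further Dnmt1 start between them, at chr9:20952930-20953229, has 12 and is not printed. The most upstream Dnmt3a start, at chr12:3806730-3807029 on the plus strand, has 46. The other Dnmt3a starts, with 47 and 18, are not printed either.
Dnmt1, upstream start: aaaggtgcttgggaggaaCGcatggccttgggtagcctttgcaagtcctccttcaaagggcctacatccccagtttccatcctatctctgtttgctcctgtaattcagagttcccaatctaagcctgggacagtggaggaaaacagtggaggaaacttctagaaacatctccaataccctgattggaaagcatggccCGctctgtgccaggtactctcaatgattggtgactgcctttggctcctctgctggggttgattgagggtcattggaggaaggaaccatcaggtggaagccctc
Dnmt1, downstream start: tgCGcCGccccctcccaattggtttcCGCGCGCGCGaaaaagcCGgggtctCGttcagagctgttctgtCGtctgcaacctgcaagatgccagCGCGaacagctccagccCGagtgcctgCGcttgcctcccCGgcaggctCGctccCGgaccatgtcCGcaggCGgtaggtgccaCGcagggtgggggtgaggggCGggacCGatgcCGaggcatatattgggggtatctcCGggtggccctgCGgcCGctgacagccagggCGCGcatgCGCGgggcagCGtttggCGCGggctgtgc
Dnmt3a, upstream start: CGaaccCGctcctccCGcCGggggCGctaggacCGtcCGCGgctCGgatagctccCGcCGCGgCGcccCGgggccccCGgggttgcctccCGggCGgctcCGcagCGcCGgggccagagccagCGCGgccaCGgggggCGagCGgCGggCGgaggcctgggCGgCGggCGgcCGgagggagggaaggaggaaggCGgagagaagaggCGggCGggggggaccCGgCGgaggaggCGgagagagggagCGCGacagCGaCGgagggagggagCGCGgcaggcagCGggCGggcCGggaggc
The median of all 32851 promoter windows was 7 CpG sites. All member windows except the upstream one of Dnmt1 (14 of 15) had more, up to 57 in Tet2. An E2F-type motif, TTTNNCGC on either strand with overlapping matches allowed, occurred in 3 of the 15 member windows, against 5.17% of all windows. It had 3 matches in the downstream Dnmt1 window and 1 each in Ezh2 and Asxl1. The motif holds a CpG site, and member windows had a median of 23 such sites against 7, so the shares compare windows of unlike base content. These are matches of letters, and an array row, which sums signal over a transcript, does not tell start sites apart.

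The differences of the Tet genes lay between -0.09 and 0.00. Tet1 read 6.26 and 6.33 in Nol3+/+ against 6.21 and 6.38 in Nol3-/- MPN, so that both Nol3+/+ values fell between the Nol3-/- MPN values, with a difference of 0.00 (SE 0.17, interval -0.44 to 0.44). Tet2, the member of the family most often lost in human myeloid neoplasm, read 5.16 and 5.70 against 5.35 and 5.34. Here the Nol3-/- MPN values lay between those of Nol3+/+, and the difference was -0.09 (interval -0.61 to 0.43, limma adjusted p = 0.969). The gap of 0.53 between the Nol3+/+ arrays was larger than in 85.1% of tested genes, whereas the Nol3-/- MPN arrays differed by 0.01. The sign of the Tet2 difference rested on a single Nol3+/+ array, with -0.36 without replicate 1 and 0.18 without replicate 2. Tet3 read 5.30 and 5.56 against 5.14 and 5.54, a difference of -0.09 (SE 0.19, limma adjusted p = 0.964) with overlapping groups, which turned to 0.11 when Nol3-/- MPN replicate 1 was left out and to 0.04 when Nol3+/+ replicate 2 was. Averaged over the 4 arrays, Tet2 and Tet3 each read 5.39, just below 5.421, the median of all gene rows, and detection calls were not used here.

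The polycomb-related members also overlapped between the groups. Ezh2 read 9.57 and 9.36 in Nol3+/+ against 9.43 and 9.86 in Nol3-/- MPN. Only Nol3-/- MPN replicate 2 lay above both Nol3+/+ arrays, and the difference of 0.18 (SE 0.23, interval -0.41 to 0.77, limma adjusted p = 0.937) was -0.04 without that array. Its paralogue Ezh1, which can take its place in PRC2, read 5.69 and 5.59 against 5.80 and 5.43, a difference of -0.03. Of the core subunits that Ezh2 needs for activity, Eed read 9.56 and 9.40 against 9.60 and 9.68 without overlap, a difference of 0.16 (SE 0.18, limma adjusted p = 0.930), and Suz12 differed by -0.04 (SE 0.25) with overlapping groups. Asxl1 read 6.28 and 6.05 against 6.29 and 6.13, a difference of 0.05 (SE 0.18, limma adjusted p = 0.983), which turned to -0.07 when Nol3+/+ replicate 2 was left out and to -0.03 when Nol3-/- MPN replicate 1 was. A further row that the annotation gives to both Asxl1 and 2500004C02Rik read 4.94 and 5.35 against 5.31 and 5.34 and was not used, since it cannot be assigned to a single gene. Asxl2 differed by -0.11 (SE 0.20), and Bap1, whose values between 4.22 and 4.86 gave a mean below the limit for dim genes, was not tested.

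The isocitrate dehydrogenase genes had the widest gaps of the 10 between the Nol3+/+ replicates. Idh2, the mitochondrial enzyme, read 6.89 and 5.72 in Nol3+/+ against 7.40 and 6.80 in Nol3-/- MPN. Nol3+/+ replicate 2 was the low value, while Nol3+/+ replicate 1 lay between the Nol3-/- MPN arrays. The difference of 0.80 (SE 0.45) was the largest of the set, 1.74-fold (interval 0.792 to 3.81, limma adjusted p = 0.846). The gaps between replicates, 1.17 in Nol3+/+ and 0.60 in Nol3-/- MPN, were larger than in 97.2% and 92.0% of tested genes. The difference was 1.38 without Nol3+/+ replicate 1 and 0.21 without Nol3+/+ replicate 2, and 0.50 and 1.10 without replicates 1 and 2 of Nol3-/- MPN. With the replicate number as a block its unadjusted p was 0.028 and its adjusted p 0.832. Idh1, the cytosolic enzyme, read 5.47 and 6.30 against 6.21 and 5.90, a difference of 0.17 (SE 0.31, interval -0.62 to 0.96, limma adjusted p = 0.958). Here Nol3+/+ replicate 1 was the low array, so the pair of Nol3+/+ arrays ranked in opposite order for the isozymes. The Idh1 difference was 0.59 without Nol3+/+ replicate 2 and -0.24 without Nol3+/+ replicate 1. The NAD-dependent enzyme of the citric acid cycle also makes 2-oxoglutarate, and its subunit genes Idh3a, Idh3b and Idh3g differed by 0.20, 0.19 and 0.78 (limma adjusted p of 0.944, 0.927 and 0.841). Idh3g, which is X-linked, read 7.05 and 8.03 against 8.36 and 8.27, without overlap.

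**Figure D2:**
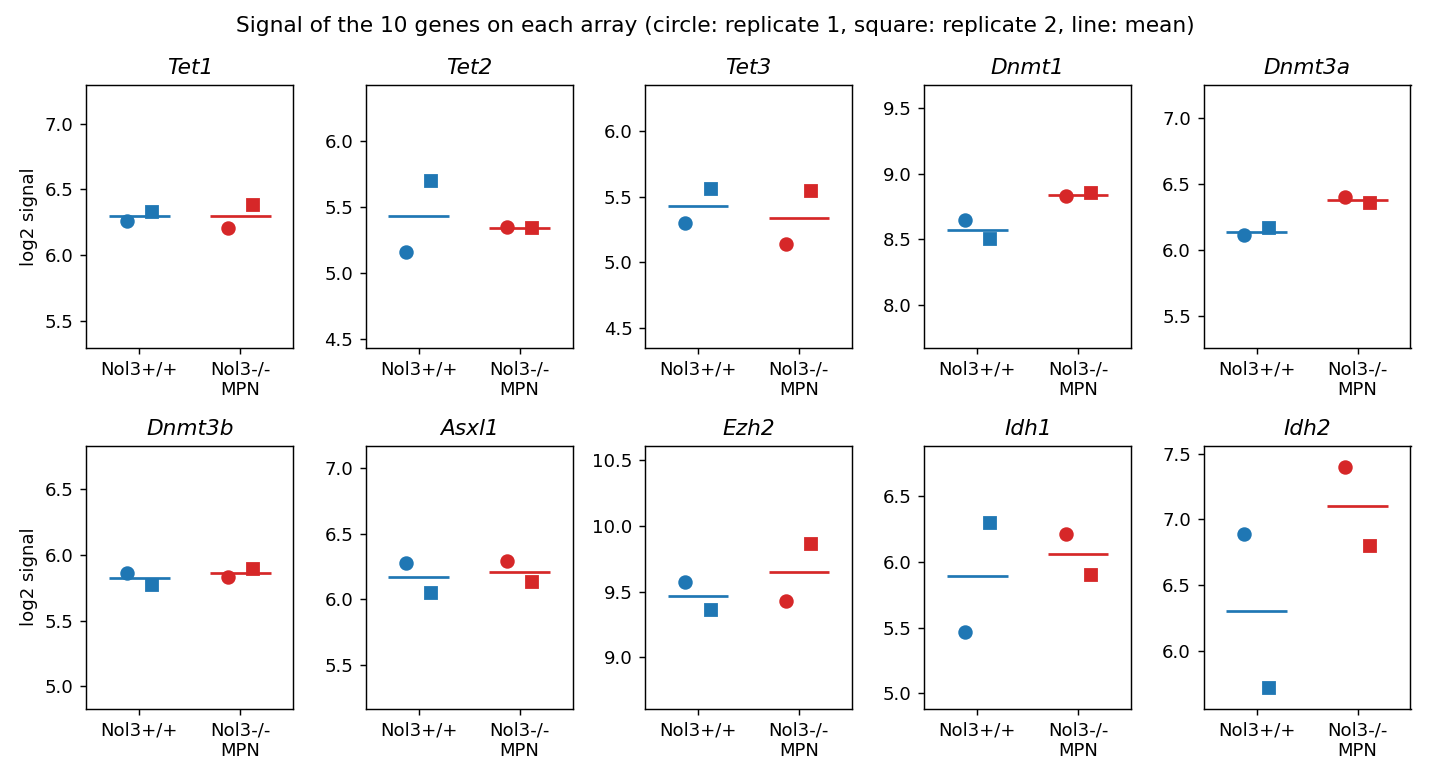
Log2 signal of each of the 10 genes on the 4 arrays, with circles for replicate 1, squares for replicate 2 and lines for group means; every panel spans 2 log2 units around its own centre, and levels are not comparable between panels. The groups are apart only for Dnmt1 and Dnmt3a, with differences of 0.27 and 0.24, and Idh2 and Idh1 spread most between replicates of Nol3+/+.

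A ratio of a pair of genes on the same array cancels any shift of the whole array, and 7 such pairs were compared. Exact two-sided permutation of 2 against 2 arrays cannot give a p below 0.333, so these are descriptions. The Dnmt3a to Dnmt3b log2 ratio was 0.25 and 0.40 in Nol3+/+ against 0.58 and 0.47 in Nol3-/- MPN, a change of 0.20 without overlap. The Dnmt1 to Uhrf1 ratio changed by 0.58, from 2.81 and 3.37 to 3.73 and 3.61, also without overlap, although Uhrf1 itself overlapped. The Tet2 to Dnmt3a ratio, an eraser over a writer, was -0.95 and -0.47 against -1.06 and -1.02, a change of -0.33 that ranged from -0.57 to -0.09 with single arrays left out. Each of these 3 pairs reached the smallest possible exact permutation p of 0.333 (0.777 after Benjamini-Hochberg adjustment over the 7 pairs). Each also holds Dnmt1 or Dnmt3a, the members whose own values did not overlap, so these ratios are not separate observations. The Idh1 to Idh2 ratio was -1.42 and 0.58 in Nol3+/+ against -1.19 and -0.90 in Nol3-/- MPN. Nol3+/+ replicate 2 stood 1.99 above Nol3+/+ replicate 1, a range within the genotype that exceeded the change of -0.63 between genotypes. The ratios of Tet1 to Tet2, Tet2 to Tet3 and Ezh2 to Ezh1 changed by 0.09, 0.00 and 0.21 and overlapped (exact permutation p = 1 each).

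**Figure D3:**
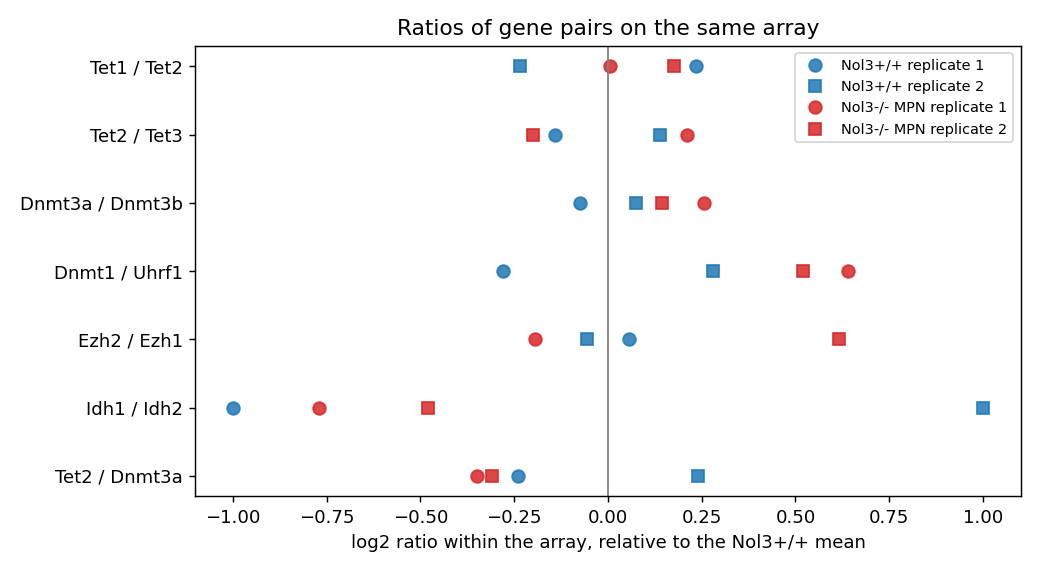
Log2 ratio of 7 gene pairs on each array, shown relative to the mean of the 2 Nol3+/+ arrays; blue marks Nol3+/+ and red Nol3-/- MPN, circles replicate 1 and squares replicate 2. The red marks lie apart from the blue for Dnmt3a / Dnmt3b, Dnmt1 / Uhrf1 and Tet2 / Dnmt3a, and the Idh1 / Idh2 ratios of the Nol3+/+ arrays lie 1.99 apart.

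The partners of these genes were followed in 6 lists that held 87 tested genes, of which 0 passed the adjusted threshold. Over all genes tested, 51.7% were higher, and at an unadjusted p under 0.05, 3.73% were higher and 2.07% lower. In the 6 lists together, 4 of the 87 were higher and 0 lower at that p. Methyl-CpG readers and cofactors of the methylation cycle had 8 of 13 tested genes higher and 5 lower in Nol3-/- MPN, a median log2 difference of 0.04, and none at an unadjusted p under 0.05 in either direction. The smallest p-values belonged to Ogt, the O-GlcNAc transferase that binds Tet proteins, at 0.50, Cxxc5, a CXXC-domain protein gene, at -0.52 and the thymine glycosylase gene Mbd4 at 0.50. The other PRC2 genes had a median of 0.16, with 6 of 9 higher and 0 at that p, led by Phf1 at 0.23, Aebp2 at 0.32 and Mtf2 at 0.36, all accessory subunits. Among PRC1 and PR-DUB genes (median -0.01, 8 of 17 higher) 2 were higher at that p and 0 lower, the PRC1 subunit gene Pcgf6 at 0.48 and Hcfc1, whose product binds Bap1, at 0.61, and Asxl3 followed at 0.18. Pcgf6 read 4.86 and 4.58 in Nol3+/+, with a mean of 4.72 below the limit for dim genes, so its difference is one of deposited signals. The 2-oxoglutarate and 2-hydroxyglutarate enzymes had 7 of 12 higher, a median of 0.16 and 1 gene at that p. This was fumarase, Fh1, at 5.73 and 5.77 against 6.29 and 6.76 (log2 difference 0.78, SE 0.21, limma adjusted p = 0.841). Adhfe1, which can make 2-hydroxyglutarate, differed by -0.28. Other genes mutated in human myeloid neoplasm had 11 of 17 higher, a median of 0.12 and 0 at that p, led by the cohesin genes Smc3 at 0.30 and Stag2 at 0.26 and the myeloid transcription factor gene Cebpa at 0.19.

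The largest difference in these lists was in Kdm6a, the X-linked demethylase that removes the histone mark set by Ezh2. It read 6.48 and 6.45 in Nol3+/+ against 8.09 and 7.67 in Nol3-/- MPN, a difference of 1.42 (SE 0.24, unadjusted p = 0.002) that missed the threshold over all genes (limma adjusted p = 0.692). Kdm6a is known to escape X inactivation. Xist divides the arrays just as genotype and the disease label do, so these cannot be told apart for Kdm6a. In its list of histone methylation genes 10 of 19 were higher, with a median of 0.01, and Kdm6a alone passed an unadjusted p under 0.05, followed by Kmt2a at 0.62 and Setd1a at 0.25, both H3K4 methyltransferase genes. Over the 6 lists, 7 of 11 X-linked genes (63.6%) lay higher in both Nol3-/- MPN arrays and 1 (9.09%) lower, among them Kdm6a, Ogt, Hcfc1, Idh3g and Stag2 on the higher side. Of the 76 autosomal genes 19 (25%) lay higher and 6 (7.89%) lower. Among all tested genes these shares were 30.2% and 10.5% of 612 X-linked genes without Xist, and 19.3% and 15.9% of 15868 autosomal genes. All of the 10 members are autosomal, on chromosomes 1, 2, 3, 6, 7, 9, 10 and 12. The part of the sex-linked division in the values of the X-linked genes was not tested.

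**Figure D4:**
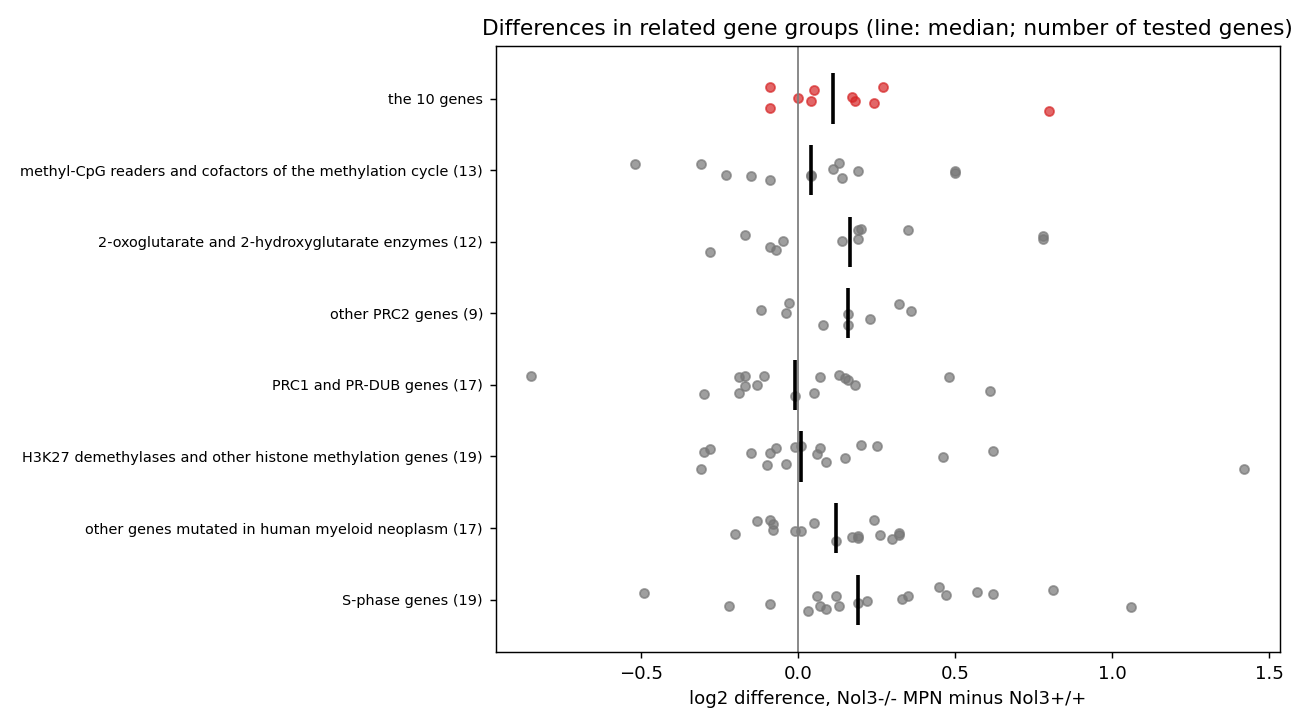
Log2 difference, Nol3-/- MPN minus Nol3+/+, of each tested gene in the set of 10 (red) and in 7 related lists (grey, number of tested genes in brackets); vertical marks are medians. Medians lie between -0.01 and 0.19, and the grey point farthest to the right is Kdm6a at 1.42.

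Dnmt1 works at the replication fork, so S-phase genes were set beside it. Of 19 tested S-phase genes 16 were higher, with a median log2 difference of 0.19, and at an unadjusted p under 0.05, 4 were higher and 1 lower, against 3.73% and 2.07% of all genes. Both Nol3-/- MPN arrays lay above both Nol3+/+ arrays in 10 of the 19 and below them in 2, against 19.7% and 15.9% of all genes. Gins1 and Mcm6, parts of the replicative helicase, differed by 1.06 and 0.81, and Rpa2, a subunit of the single-strand binding protein, by -0.49 (limma adjusted p = 0.841 for each). Rpa2, the 1 gene lower at an unadjusted p under 0.05, read 4.67 and 4.89 in Nol3-/- MPN. Their mean of 4.78 lies below the limit for dim genes, so the Rpa2 difference is one of deposited signals. The log2 of the summed signal of the list, in which bright genes weigh most, was 11.60 and 11.78 in Nol3+/+. In Nol3-/- MPN it was 11.94 and 11.99, without overlap. Any gene without overlap, Dnmt1 included, divides the arrays in this way. The part of S phase in the Dnmt1 values was not tested. Pcna, the sliding clamp that binds Dnmt1 at the fork, differed by 0.12 (SE 0.17) with overlapping groups, and Uhrf1 lay lower, as given above.

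Each array was left out in turn. With 2 arrays a group, the resulting ranges follow from the group difference and the gaps between replicates. They describe the same spread again and are no separate check. The difference of Dnmt1 ranged from 0.19 to 0.35 and that of Dnmt3a from 0.21 to 0.27, the narrowest range of the 10. Dnmt3b stayed between 0.00 and 0.09 and Tet1 between -0.08 and 0.08. Idh2 remained above 0 but ranged from 0.21 to 1.38. The sign turned for Tet2, Tet3, Asxl1, Ezh2 and Idh1. No member passed the adjusted threshold in any of the 14 alternative settings, and the lowest adjusted p was 0.431, for Idh1 without Nol3+/+ replicate 2.

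**Figure D5:**
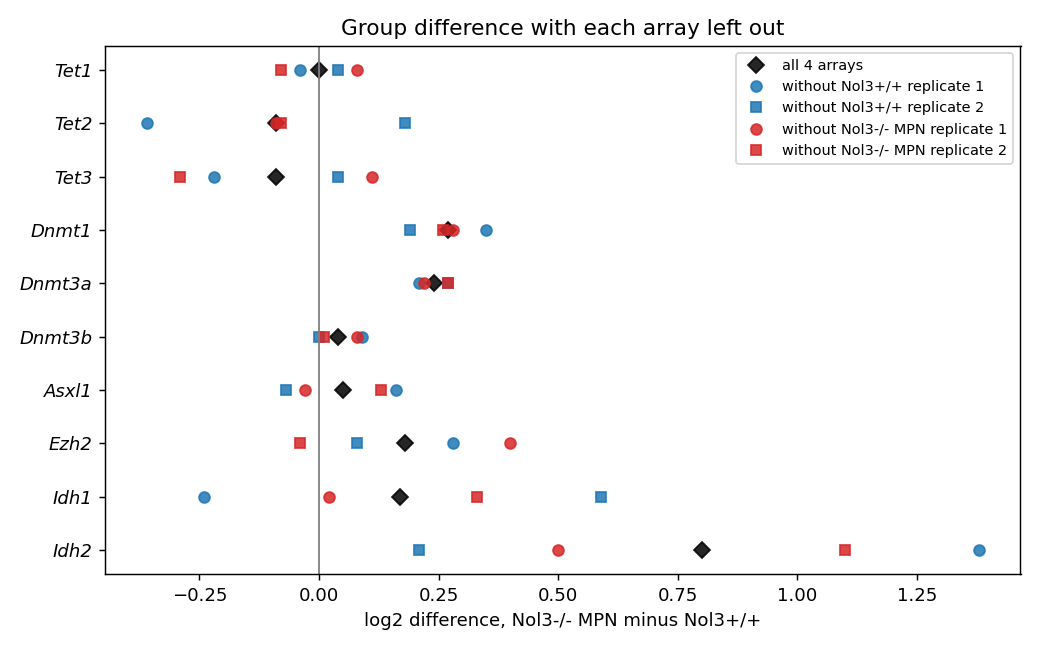
Log2 difference, Nol3-/- MPN minus Nol3+/+, of each member with all 4 arrays (black diamonds) and with 1 array left out (coloured marks). The marks of Dnmt3a lie within 0.21 and 0.27, whereas those of Idh2 spread from 0.21 to 1.38 and those of Idh1 from -0.24 to 0.59.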

How the data were processed

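Per the submitters' processing notes, the authors used Affymetrix Expression Console and Transcriptome Analysis Console; no versions, background correction or normalization method are named there. Log2 signals are the unit assumed for the table that the authors deposited, with 41345 rows and 4 arrays. Neither scale nor log base is stated; both were inferred from the range, 2.84 to 13.5, and fold changes depend on that. Per the labels' protocols, RNA was amplified by single-primer isothermal amplification before labelling. Array number limits the precision.

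The platform annotation gave 23521 rows 1 gene symbol, 1814 several and 16010 none, and 22180 genes were named from the first kind. Chromosomes came from RefSeq (GRCm38.p6). Genes with a mean below the 25th percentile (4.835) were left out, leaving 16635. The groups were tested by limma (version 3.58.1, R 4.3.3; lmFit, eBayes with trend; 2 residual and 3.19 prior degrees of freedom), two-sided, with Benjamini-Hochberg adjustment over all genes tested. The fit was also run on data simulated under its own variance model, which checks the code and not the assumptions. Members and lists were chosen with earlier results of these data known. Of 195 list genes, 172 matched a row; the others were not analysed here. Named genes were all members, fixed partner genes, the 3 smallest p-values of each related list and the sort and sex-linked genes. Granulocyte and monocyte markers were named from both directions. The further alternatives are given at the end.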

Additional observations from a re-analysis of the deposited data

How the results depend on the processing

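Of 138 member differences recomputed under the alternatives, 7 changed sign, all with 1 array left out, and 0 passed the adjusted threshold. The ranges over the 4 fits that leave out 1 array were -0.36 to 0.18 for Tet2, -0.29 to 0.11 for Tet3, -0.07 to 0.16 for Asxl1, -0.04 to 0.40 for Ezh2 and -0.24 to 0.59 for Idh1. The number of members at an unadjusted p under 0.05 ranged from 0 to 1 in those fits, with Idh2 (0.008) without Nol3+/+ replicate 1 and Idh1 (0.047) without Nol3+/+ replicate 2. It was 1 in the ordinary per-gene test (Dnmt3a) and 1 with the replicate block (Idh2). Same-numbered arrays did not deviate together (r = 0.0485 across 16635 genes), so the numbers may not pair samples. The members' median difference of 0.11 ranged from 0.07 to 0.13 with 1 array left out and was 0.18 with the limit for dim genes at the 50th percentile, which removes Tet2 and Tet3. The 4 genes called over the whole table became 0 with the replicate block, 0 in the ordinary test, 0 without X- and Y-linked genes and 0 to 39 with 1 array left out (18 without Nol3+/+ replicate 1, 39 without Nol3+/+ replicate 2, 0 without either Nol3-/- MPN array). At an unadjusted p under 0.05 limma took 965 genes over the whole table. The cause of these changes was not tested. Weak signals are not separable from background here, and 2 arrays a group limit every member.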
